A study of Saccharomyces cerevisiae with 2 samples.

Results

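The genes described here encode the cytosolic translation factors of budding yeast and its tRNA synthetases, as seen in a strain that lacks SWR1. They were taken from a list of 52 gene names, and 41 of these had a compaction score among the 4738 genes scored by the authors. SWR1 encodes the ATPase of SWR-C, the remodeling enzyme that places the histone variant H2A.Z into nucleosomes next to promoters, so the strain cannot deposit H2A.Z by this route. The swr1Δ strain, of W303 background, was grown to mid-log phase in the rich medium YPD and fixed with formaldehyde, and Micro-C was used to ligate neighboring nucleosome ends after micrococcal nuclease digestion. The labels name 2 replicates of this single group. The deposited distance table holds 2 libraries, which are not tied to a replicate number. They have 8804603 and 7314801 read pairs at distances of 1 to 10000 bp, the range of that table. The labels do not say whether the replicates came from separate cultures. WT was not analysed here, so no value below is a change caused by the loss of SWR1.

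For each gene there is 1 compaction score, which the authors computed from the Micro-C contacts of that gene. It has no stated unit, no value per library and no error, and the sources used here do not give its formula, its log base or whether a low score stands for a less compact gene. The scores below are therefore compared as values only. How far apart 2 scores must be to exceed replicate error is not known, no test was made, and genes are not replicates of one another. The depth behind each score is unknown as well. SWR1 itself, the gene that this strain lacks, has a score of -2.13, with 0.507% of all scored genes lower. Why it has a score was not tested.

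Translation starts when initiation factors bring the small ribosomal subunit and the initiator tRNA to the capped end of an mRNA. Elongation factors then deliver aminoacyl-tRNAs and move the ribosome along, and release factors end the chain at the stop codon. The tRNA synthetases charge each tRNA with its amino acid. In growing yeast, the elongation factors are among the most abundant proteins of the cell, whereas the regulatory complex eIF2B is scarce.

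The translation genes had low scores as a group. Their median was -0.412, against -0.0394 for all scored genes, and the scores ran from -1.44 for TEF2 to 0.387 for TIF4632. Of the 41 genes, 33 (80.5%) had a score below 0, against 53.8% of all scored genes. In the lowest 25% of all scored genes, which lay below -0.342, there were 23 of them (56.1%, against a background of 25%). In the highest 25%, above 0.248, there was only TIF4632 (1 of 41, background 25%). The lowest 10% of all scored genes held 6 of the 41 (14.6%, background 10%), and the highest 10% held none. These 6 genes were TEF2, TEF1, EFB1, SUP45, YEF3 and NIP1, so 4 of them encode elongation factors, 1 encodes a release factor and 1 an initiation factor. Without the elongation factor genes, the share in the lowest 10% was 5.88% and the median of the remaining 34 genes was -0.303.

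**Figure D1:**
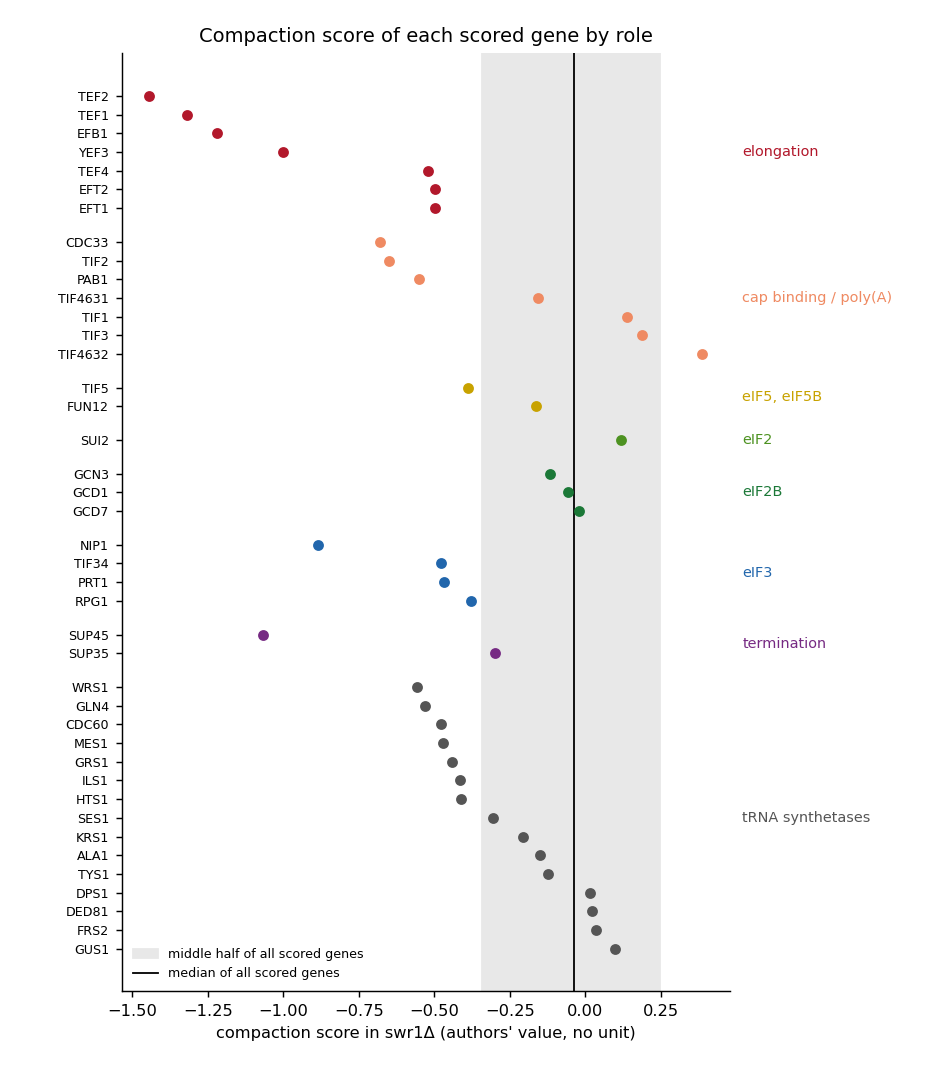
Each point is the compaction score in swr1Δ (x axis, no unit) of 1 scored translation gene (y axis), grouped by role; the grey band spans the quartiles of all scored genes (-0.342 to 0.248) and the line marks their median (-0.0394). All 7 elongation factor genes and all 4 eIF3 genes shown lie left of the band, and only TIF4632 lies to its right.

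The elongation factor genes had the lowest median score of the role groups. All 7 that were scored lay in the lowest 25% of the genome, with a median of -1.002. Among them are the nearly identical copies TEF1 and TEF2, and EFT1 and EFT2, whose scores are less certain, as described below. TEF2 and TEF1 encode the same protein, eEF1A, the GTPase that delivers aminoacyl-tRNA to the ribosome. TEF2 (YBR118W; chromosome II, 477671 to 479047 in the R64 assembly) had a score of -1.44, and 89 genes of the 4738 had a lower one. TEF1 (YPR080W; chromosome XVI, 700594 to 701970) had a score of -1.32, with 122 genes lower. EFB1 (YAL003W; chromosome I, 142174 to 143160), which encodes the catalytic subunit of the nucleotide exchange factor of eEF1A, had a score of -1.22, with 151 genes lower. These 3 genes stood within 3.19% of the bottom of the ranking. YEF3 (YLR249W; chromosome XII, 636780 to 639914), which encodes the fungal factor eEF3, had a score of -1.002. YEF3 is 3135 bp long, and it stood lower among genes of like length, of which 1.5% were below it, than among all genes, of which 5.28% were. The other elongation genes were less extreme. TEF4 (YKL081W; chromosome XI, 282891 to 284455), which encodes another subunit of the exchange factor, had a score of -0.522. EFT1 (YOR133W; chromosome XV, 575098 to 577626) and EFT2 (YDR385W; chromosome IV, 1243230 to 1245758), which both encode the translocase eEF2, had the same score of -0.498, and 17.1% of all genes were lower.

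EFB1 and TEF4 each carry a small nucleolar RNA gene within their span in the R64 gene table, SNR18 at 142367 to 142468 of chromosome I and SNR38 at 283185 to 283279 of chromosome XI. No other scored gene of the list contained an annotated noncoding gene.

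Genes of the cap-binding and poly(A)-binding factors were the most divided set. Their 7 scores ran from -0.681 to 0.387, with a median of -0.159, and 4 of them were below 0. CDC33 (YOL139C; chromosome XV, 60383 to 61024), which encodes the cap-binding protein eIF4E, had a score of -0.681, and PAB1 (YER165W), which encodes the poly(A)-binding protein, had a score of -0.552. TIF2 (YJL138C; chromosome X, 153504 to 154691), one of the genes for the RNA helicase eIF4A, stood close to them at -0.651. The 2 genes for the scaffold eIF4G were higher, with TIF4631 (YGR162W; chromosome VII, 824059 to 826917) at -0.159 and TIF4632 (YGL049C; chromosome VII, 406860 to 409604) at 0.387, the highest score of all the translation genes, with 774 genes above it. TIF3 (YPR163C), which encodes eIF4B, had a score of 0.186, and TIF1 (YKR059W; chromosome XI, 554987 to 556174), the other gene for eIF4A, a score of 0.138. Thus 3 of the 7 lay in the lowest 25% of the genome and 1 in the highest.

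The 4 listed and scored genes of eIF3, the large scaffold that holds the initiation factors on the small subunit, all lay in the lowest 25%. NIP1 (YMR309C; chromosome XIII, 892988 to 895426), which encodes subunit c, had a score of -0.885, and it was the lowest when set against the 200 genes of most similar length. TIF34 (subunit i) and PRT1 (subunit b) followed with scores of -0.478 and -0.469. RPG1 (subunit a; YBR079C; chromosome II, 395383 to 398277) was the highest of them at -0.378. HCR1, a gene for a loosely bound eIF3 subunit that is not on the list, had a score of 0.666. Of the 4 listed and scored genes of eIF2 and eIF2B, none lay in the lowest 25% (background 25%). eIF2 carries the initiator tRNA, and eIF2B recharges eIF2 with GTP and is the target of the general amino acid control pathway. The genes for 3 subunits of eIF2B, GCN3 (chromosome XI, 488738 to 489655), GCD1 and GCD7 (chromosome XII, 718317 to 719462), had scores of -0.116, -0.0589 and -0.0205, a narrow range next to the genome median. SUI2 (YJR007W; chromosome X, 451020 to 451934), for the alpha subunit of eIF2, had a score of 0.116. TIF5 (YPR041W; chromosome XVI, 648704 to 649921), which encodes eIF5, the GTPase activator of eIF2, had a score of -0.388, and FUN12 (YAL035W; chromosome I, 76427 to 79435), which encodes the subunit-joining GTPase eIF5B, had a score of -0.164.

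The release factor genes differed by 0.769. SUP45 (YBR143C; chromosome II, 530869 to 532182), which encodes the stop codon reader eRF1, had a score of -1.07, with 220 genes lower. SUP35 (YDR172W; chromosome IV, 808324 to 810381), which encodes its GTPase partner eRF3, had a score of -0.298.

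The tRNA synthetase genes formed a tighter set than the translation factors. The SD of their 15 scores was 0.23, against 0.479 for the other 26 genes and 0.352 for the 17 initiation factor genes alone. The synthetase genes were also longer, with a median of 1776 bp against 1471 bp for the other 26. Over all scored genes, scores spread less in genes of at least 1500 bp than in shorter ones. The median score of the synthetase genes was -0.308, which was higher than that of the elongation factor genes by 0.694 on the score scale. Below 0 lay 11 of the 15. None lay in the lowest 10% or the highest 25% of the genome, and 7 lay in the lowest 25%. WRS1 (YOL097C; chromosome XV, 136527 to 137825), for tryptophan, was the lowest at -0.557, and GUS1 (YGL245W; chromosome VII, 39023 to 41149), for glutamate, was the highest at 0.0987.

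Synthetases fall into 2 structural classes with unrelated catalytic folds. The 7 scored genes of class I had a median of -0.472. GLN4 (glutamine), CDC60 (leucine), MES1 (methionine) and ILS1 (isoleucine) had scores of -0.531, -0.479, -0.472 and -0.415, while TYS1 (tyrosine) had -0.126. The 8 scored genes of class II had a median of -0.179. GRS1 (glycine) and HTS1 (histidine) stood in the lowest 25% of the genome with scores of -0.443 and -0.412. SES1 (serine), KRS1 (lysine) and ALA1 (alanine) had scores of -0.308, -0.207 and -0.152. DPS1 (aspartate), DED81 (asparagine) and FRS2 (the alpha subunit for phenylalanine) were just above 0, at 0.0162, 0.0202 and 0.0348.

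Several of the proteins are made from 2 gene copies, and the copies did not always score alike. The eEF1A genes differed by 0.124 and the eEF2 genes by 0, whereas the eIF4A genes TIF1 and TIF2 differed by 0.789 and the eIF4G genes by 0.546. For any 2 scored genes, the median difference was 0.462, with quartiles of 0.214 and 0.828. Scores equal to the last deposited digit, as for EFT1 and EFT2, occurred in 696 of the 11221953 pairs of scored genes (0.0062%). The sequences of the eEF1A, eEF2 and eIF4A copies are nearly identical, and how read pairs that match both copies were treated is not given in the sources used here, so these 6 scores are less certain than the others. Without them the median of the remaining 35 genes was -0.378.

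TIF1 and TIF2 also lie in matching surroundings. Each follows a gene for glycogenin, the primer of glycogen synthesis, in the order of scored genes. GLG2, on the 5′ side of TIF2, had a score of -0.695, close to that of TIF2. GLG1, on the 5′ side of TIF1, had a score of -0.864, whereas TIF1 was above 0. For the eEF1A genes, the nearest scored gene on the 3′ side was a glycyl-tRNA synthetase gene or its paralog. GRS2 (0.04) directly adjoins TEF1, at 143 bp, whereas GRS1 (-0.443) lies 2316 bp from TEF2 with unscored genes between them. Both eEF1A genes were lower than these flanking genes.

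Other genes of the same process were compared by their counts and medians. A list of 22 further cytosolic translation genes had 19 with a score, among them helicases, recycling factors and regulators of eIF2. These 19 had a median of -0.221 with 12 below 0 (63.2%, background 53.8%). In the lowest 25% there were 6 of them (31.6%, background 25%). STM1, which encodes a ribosome-binding protein, was the lowest at -0.776. The synthetase genes for arginine (YDR341C), cysteine (YNL247W) and proline (YHR020W), which the list of 52 does not hold, had scores of -0.546, -0.523 and -0.202. The highest were HCR1, a gene for a loosely bound eIF3 subunit, at 0.666, and GCN1, a gene for an activator of the eIF2 kinase, at 0.631. HEF3, a paralog of YEF3, had a score of 0.297 against -1.002 for YEF3.

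Of 21 genes for mitochondrial translation factors and synthetases, 20 had a score, with a median of -0.18 and 12 below 0 (60%, background 53.8%). In the lowest 25% there were 9 of them (45%, background 25%), against 46.7% of the listed cytosolic synthetase genes. DIA4 was the lowest at -0.877 and MSD1 the highest at 0.517. TUF1, the mitochondrial counterpart of eEF1A, had a score of 0.324. The 120 cytosolic ribosomal protein genes lay below the translation genes at the median, with -0.95. Of them, 70.8% lay in the lowest 10% of the genome. They are shorter, with a median length of 812.5 bp against 1674 bp. Among the 200 genes closest in length, a median of 10% scored lower than a ribosomal protein gene and 14.5% lower than a translation gene. Among all genes these medians were 5.92% and 21.0%. The 46 mitochondrial ribosomal protein genes had a median of 0.0327. Among the role groups, the elongation factor genes, at a median of -1.002, were the only ones with a median as low as that of the cytosolic ribosomal protein genes. These differences between lists were not tested.

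**Figure D2:**
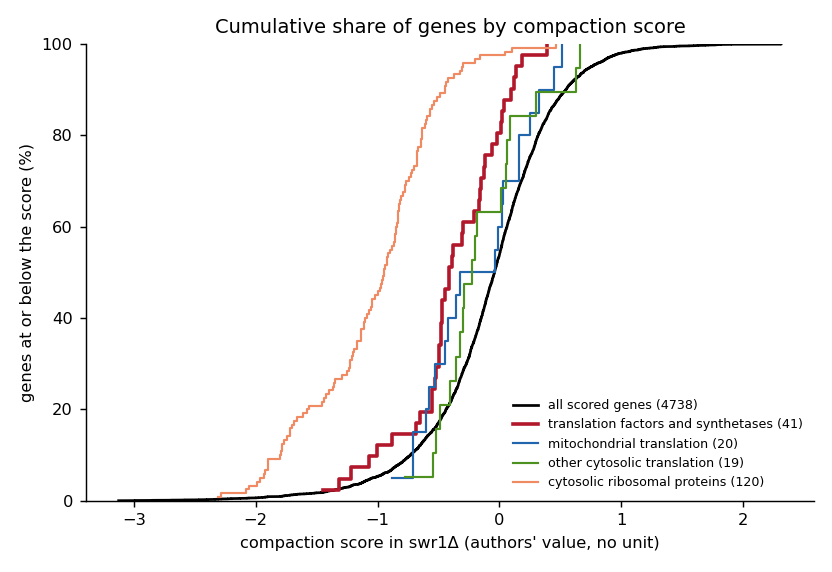
Each line gives the share of genes in percent (y axis) at or below a compaction score in swr1Δ (x axis, no unit), for all scored genes, the 41 translation genes, 2 further translation lists and the cytosolic ribosomal protein genes. The line of the translation genes (median -0.412) runs between that of the ribosomal protein genes (median -0.95) and that of all genes (median -0.0394).

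Gene length did not order the scores among the translation genes. Across the 41 genes, which run from 642 bp (CDC33) to 3273 bp (CDC60) in the R64 gene table, Spearman's rho of score and length was -0.0149, and across 4585 scored genes found in that table it was 0.0831. Genes share their 2 libraries, so these coefficients are descriptions. The 16 genes under 1500 bp, the 15 genes of 1500 to 2500 bp and the 10 longer genes had medians of -0.433, -0.412 and -0.397. Relative to genes of their own length, the translation genes stood lower than in the whole ranking. Of the 41 genes, 25 (61%) lay in the lowest 25% of the 200 scored genes closest in length, where the background was 24.8%. In the lowest 10% of those there were 15 (36.6%, background 9.84%), against 6 in the lowest 10% of all genes. The spread of scores was narrower in long genes, with an interquartile range of 0.739 for all genes under 1500 bp, 0.466 for those of 1500 to 2500 bp and 0.403 for longer ones. CDC60, for example, had 18% of all genes below it but 5.5% of those of like length, and PAB1 had 15.2% and 6.5%. The short gene TIF34 (1044 bp) went the other way, with 18% and 22%.

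**Figure D3:**
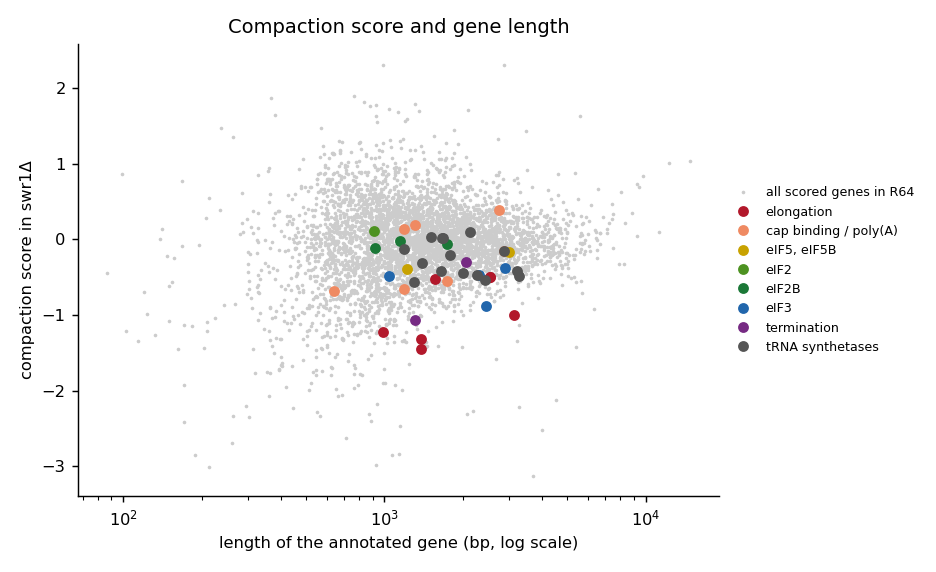
Compaction score in swr1Δ (y axis, no unit) is plotted against the length of the annotated gene (x axis, bp, log scale) for all scored genes in R64 (grey) and the translation genes (colored by role). The grey cloud narrows toward long genes, and YEF3 (3135 bp, score -1.002) and NIP1 (2439 bp, score -0.885) lie near its lower edge.

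The scored genes nearest to the translation genes did not, at the median, share their low scores. Flanking genes, also called the nearest scored genes, are the nearest genes with a score and a position in the R64 gene table. The 153 scored identifiers absent from that table had no position and could not be flanks. For 15 of the 41 genes, at least 1 of the directly adjacent annotated genes had no score, so that the flank lay further away. In the gene order of R64, the nearest scored gene on the 5′ side had a median score of 0.0686 and that on the 3′ side a median of -0.132. The mean of the flanking scores had a median of -0.072 over the 41 genes and -0.0591 over all genes with a scored gene on each side. Of the 41 genes, 33 (80.5%) scored below the mean of their flanks, against 49.3% of all genes, and 23 (56.1%) scored below both flanks, against 32.4%. Only SUI2, TIF3 and GCN3 scored above both (3 of 41, or 7.32%, against 32.4%). A stricter count gave 16 genes (39%) below all 4 of the nearest scored genes, 2 on each side, against 20% of all genes.

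A low score by itself makes it likelier that a gene lies below its flanks. Among all genes in the lowest 25%, 73% were below both flanks, and of the 23 translation genes there, 19 (82.6%) were. Of the other 18 translation genes, 4 (22.2%) were, against 19.1% of all genes outside the lowest 25%. All 7 elongation factor genes were below both flanks. TEF2 lay at -1.44 between TKL2 (0.239), a transketolase gene, and GRS1 (-0.443), and TEF1 at -1.32 between MRL1 (-0.356) and GRS2 (0.04). EFB1 lay at -1.22 between ERP2 (0.182), which is 3828 bp away, and VPS8 (-0.326), and YEF3 at -1.002 between RCK2 (-0.11) and SSP120 (0.107). The eEF2 genes had different flanking genes, all of them above 0, with VPS17 (0.0777) and BAG7 (0.495) beside EFT1, and ATO3 (0.231) and MUS81 (0.0271) beside EFT2.

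In the other roles the counts below both flanks were 3 of 4 for eIF3 and 8 of 15 for the synthetases. The cap-binding and poly(A)-binding factors had 2 of 7, TIF5 and FUN12 2 of 2, and the release factors 1 of 2. The counts were 0 of 1 for eIF2 and 0 of 3 for eIF2B. The share over all genes was 32.4%. NIP1 lay at -0.885 between YMR310C (0.0646) and PSE1 (-0.38), and WRS1 at -0.557 between COQ3 (0.107) and YOL098C (-0.132). FRS2 lay below both flanks with a score of only 0.0348, with BUD27 (0.16) at 122 bp on its 3′ side. On its 5′ side the flank was PAU5, a seripauperin gene with a score of 1.87, 4220 bp away past an unscored gene. By systematic name, YFL021C-A (0.0637), which is scored but not in the R64 gene table, falls between FRS2 and PAU5. TIF4632, the highest translation gene, lay between RPT6 (0.315) and TYW3 (0.572), both of which were also above 0. GUS1, the highest synthetase gene, lay between RAI1 (-0.0752) and RTF1 (0.665).

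SUP45, in contrast, had a low scored gene on its 5′ side, ADH5 at -0.87 and 1579 bp away, and MAK5 (-0.346) on its 3′ side. SUP35 lay between SEC7 (0.0686), which is 6101 bp away, and HMO1 (-0.557). RPG1 was followed by ECM33, a cell wall protein gene with a score of -0.792, and KRS1 by ENA5, a sodium pump gene of a repeated cluster, with a score of -1.13. A cytosolic ribosomal protein gene was the nearest scored gene on a side of 1 of the 41 genes (2.44%), against 5.02% of all scored genes. This was SES1, with RPS11A (-0.881) on its 3′ side in the R64 order. By systematic name, FYV1 (YDR024W, -1.77), which is scored but not in the R64 gene table, falls between SES1 and RPS11A. Adjacent ribosomal protein genes without a score were not counted.

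**Figure D4:**
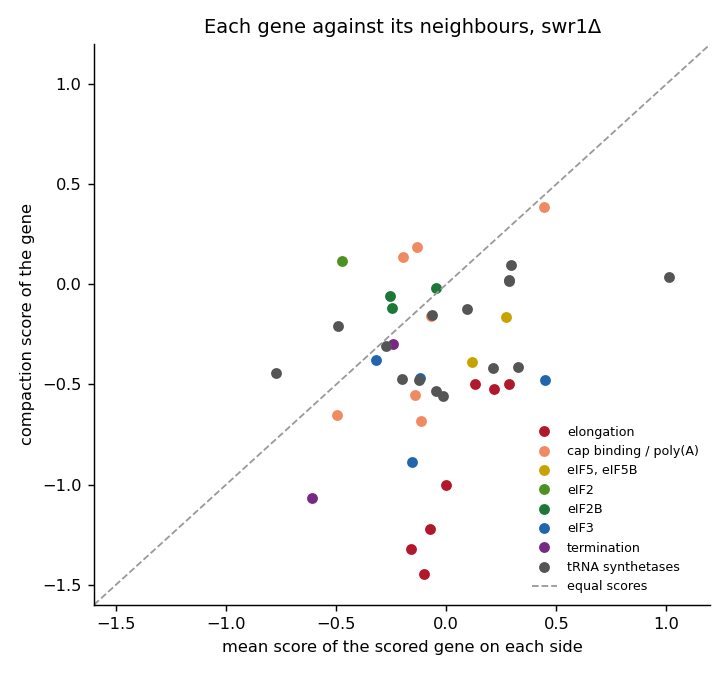
The compaction score of each translation gene (y axis, no unit) is plotted against the mean score of its flanks (x axis), colored by role, with a dashed line of equal scores. A flank is the nearest gene on a side with a score and a position in R64. Below the line lie 33 of the 41 points, and the 7 elongation factor genes are all among them.

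**Figure D5:**
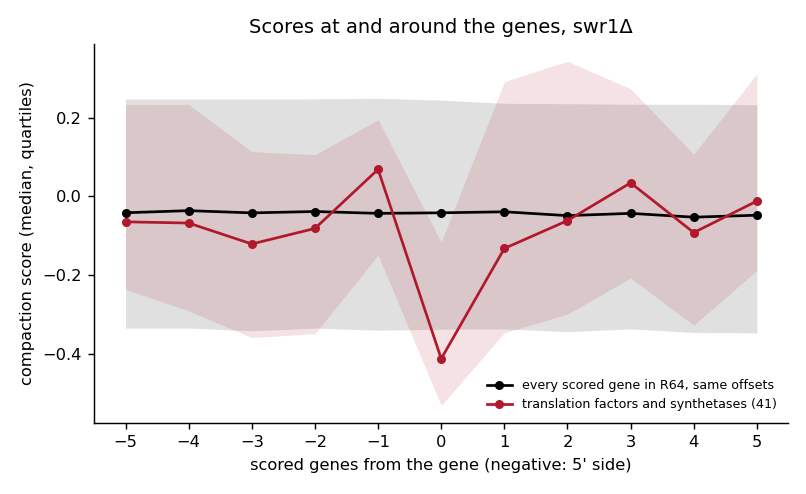
The line gives the median and the shading the quartiles of the compaction score (y axis, no unit) at the translation genes (offset 0) and at the 5 scored genes on either side (x axis, negative on the 5′ side), with the same for every scored gene in R64 in black. Scored genes without a position in R64 are left out of the order. The median dips to -0.412 at the genes and is 0.0686 and -0.132 at the nearest scored genes.

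The scores also differed with the orientation of the gene upstream. For 22 genes the adjacent annotated gene on the 5′ side points the other way, so that both genes start from the same intergenic region, and for 19 genes it points the same way. The divergent genes had a median of -0.185 and 9 of 22 (40.9%) in the lowest 25%, and the tandem genes had a median of -0.469 and 14 of 19 (73.7%). Over all scored genes the medians were -0.0142 and -0.0775, and the shares in the lowest 25% were 22.2% and 27.3%. Of the 15 synthetase genes, all but WRS1, GRS1 and ILS1 were divergent. The median synthetase score was -0.308, against -0.474 for the other 26 translation genes, so orientation and role overlap here. Both orientations occur in both roles. The tandem WRS1, GRS1 and ILS1 scored -0.557, -0.443 and -0.415, and the divergent synthetase genes ran from -0.531 (GLN4) to 0.0987 (GUS1). How far orientation or role goes with the scores was not tested. Both arrangements occur among the lowest genes, with TEF2 and EFB1 divergent and TEF1, SUP45, YEF3 and NIP1 tandem. The 41 genes are spread over 13 chromosomes, and among the genes of the list that follow each other on a chromosome, only TEF2 and GRS1 (2316 bp apart) and HTS1 and TIF5 (9684 bp apart) were less than 20000 bp from each other.

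The remaining 11 genes of the list had no score, neither under their name nor under their systematic identifier. They were HYP2, for the elongation factor eIF5A, SUI1 and TIF11, for the start codon factors eIF1 and eIF1A, TIF35 of eIF3, SUI3 and GCD11 of eIF2, GCD2 and GCD6 of eIF2B, and the synthetase genes FRS1, THS1 and VAS1. Short genes were affected most, since 5 of the 9 listed genes under 1000 bp had no score, against 6 of 43 longer ones. Among all protein-coding genes of R64, 60% of those under 1000 bp and 86.9% of the longer ones had a score. The values for eIF2 and eIF2B therefore rest on 4 of 8 genes, and those for the factors of start codon choice on TIF5 and FUN12 without SUI1 and TIF11.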

How the data were processed

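Per the labels, the authors crosslinked swr1Δ cells, digested chromatin with micrococcal nuclease, ligated it and sequenced the products in pairs. The submitters' processing notes name CASAVA 1.8.2, Bowtie2 and sacCer3, the same assembly as R64. The authors deposited 1 score per gene, whose formula, gene filter and combination of libraries are not given in the sources used here. They also deposited counts of read pairs by distance from 1 to 10000 bp, used here only for the total of each library within that range. The paper's methods give 3 replicates and the labels 2. There were 0 per-sample columns left unused.

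The listed genes were matched by name. Gene order, length and coordinates came from the R64 gene table, which held 4585 of the 4738 identifiers (96.8%). The strand was read from the systematic name. Each score was ranked among all genes and among the 200 closest in length, and set beside the nearest scored genes found in R64. Every listed gene was named, with positions given for the lowest and highest of each role, genes in the lowest or highest 10% and gene copies. Planned descriptions of codon usage and promoter motifs were not run, as no sequence was used here. The members, lists and alternatives were chosen with earlier results of these data known. No test was made. Functions were checked on simulated scores. Python 3.11.15, numpy 2.4.6, pandas 2.3.3, scipy 1.17.1 and matplotlib 3.10.9 were used.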

Additional observations from a re-analysis of the deposited data

How the results depend on the processing

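The share of the 41 genes in the lowest 10%, 14.6%, was 36.6% when each gene was ranked among the 200 closest in length, and 5.88% without the elongation factor genes, an alternative chosen after seeing the data; for the first the cause was not tested, and the second leaves out 4 of the 6 genes counted. The share below both flanking genes, 56.1%, was 39% when a gene had to lie below the 2 nearest scored genes on each side, a stricter count that 20% of all genes met. The correlation of score and length, -0.0149, changed sign to 0.0508 with Pearson's r. The median score (-0.412 to -0.292), the share below 0 (78% to 81.1%), the share in the lowest 25% (47.1% to 61%) and the difference of elongation factor and synthetase medians (-0.694 to -0.667) kept their direction under every alternative run for them. Without the gene copies, the difference of elongation factor and synthetase medians rested, on the elongation side, on EFB1, TEF4 and YEF3 alone. The planned description of codon usage, with its alternatives, and that of promoter motifs were not run, because no genome sequence was used here. Leaving out a replicate was not run, since each score is 1 value over the libraries. No paired analysis was possible because all samples are of 1 strain. The depth behind a score is unknown, so the scores of short genes, which spread most, cannot be given an error.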
